A study of Mus musculus with 4 samples.

Results

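Interferon-stimulated genes are the genes that a cell switches on after interferon binds its receptor, and 42 of them were followed here in naive CD4+ T cells with and without TACI. They were chosen by name, with earlier results of these data known, as the classical antiviral effectors outside the Oas family and the interferon-inducible GTPases. Of the 42 genes, 40 had a probe set that the platform annotation pairs with 1 gene symbol, among 22180 genes in all, and 36 were bright enough to test, among 13782. Ifi44 had no such probe set, and Dtx3l had only one shared with Parp9.

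The cells were CD4+ T cells with high CD62L, low CD44 and no CD25 on their surface, sorted from pooled spleen and lymph nodes of C57BL/6 mice. One group came from TACI-/- mice, which lack the receptor encoded by Tnfrsf13b, and the other from wild-type (WT) mice, with no treatment named for either. TACI is a receptor for BAFF and APRIL, cytokines that act mainly on B cells. There were 2 arrays per genotype (Affymetrix Mouse Gene 2.0 ST), called biological replicates in the labels. How many mice made a pool, their age and how the TACI allele was made are not given in the sources used here. All values are log2 units as deposited, and the number of arrays, 2 per genotype, limits the precision.

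Tnfrsf13b itself was at 2.73 and 3.09 on the TACI-/- arrays and at 2.95 and 3.02 on the WT arrays. These levels lie below the low-value filter, the 40th percentile of each array (3.74 to 3.77), so the probe set does not check the genotype labels. Of 10 fixed markers of naive CD4+ T cells, 7 had a probe set and all 7 were above the filter, with a mean level of 10.1 to 10.3 on the 4 arrays. Cd4 was at 10.6, 10.4, 10.6 and 10.5. Of 4 markers that the sort should leave out or keep low, Cd8a lay below the filter on all 4 arrays. The other 3 lay above it on all 4, Cd8b1 at 5.73 to 6.59, Cd44 at 5.65 to 6.00 and Il2ra, which encodes CD25, at 4.65 to 5.25. Arrays of one genotype correlated at r = 0.982 (TACI-/-) and 0.984 (WT) over the tested genes, and arrays of different genotypes at 0.976 to 0.981.

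In this pathway, type I interferon engages the receptor chains Ifnar1 and Ifnar2, the Janus kinases Jak1 and Tyk2 phosphorylate transcription factors of the STAT family, which join Irf9 in the complex ISGF3. ISGF3 binds a promoter element called the interferon-stimulated response element (ISRE). Many cells hold a low, tonic level of this signal without infection, and resting T cells express several of the target genes. The products sense viral nucleic acid, block steps of viral replication, or attach ubiquitin and the ubiquitin-like protein ISG15 to other proteins.

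The 36 tested genes had lower levels in TACI-/- than in WT cells in 33 cases, by small amounts (35 after median centring or a further quantile normalization, 27 without TACI-/- replicate 2). Their median log2 fold change (TACI-/- minus WT) was -0.20, beside 0.0074 over all tested genes, and it ran from -0.95 for Phf11 to 0.07 for Eif2ak2. No gene of the set had an adjusted p under 0.05 in limma (Benjamini-Hochberg over all 13782 genes), a threshold that 0.138% of all tested genes passed. At an unadjusted limma p under 0.05, 8 of the 36 genes were lower in TACI-/- cells and 0 higher, beside 3.84% of all tested genes lower and 4.94% higher. The 8 were Phf11, Ifit1, Rtp4, Dhx58, Ifit2, Rsad2, Herc6 and Parp9, and their adjusted p lay between 0.318 and 0.566 in limma. That count was 3 of the 36 without variance moderation, beside 7.15% of all tested genes in either direction. It also fell to near the share of all tested genes without TACI-/- replicate 2 or without WT replicate 1, where 1 array stands for a genotype. Whether the interferon response itself differs between the genotypes was not tested. Bulk RNA also cannot tell fewer cells with a response from a weaker response per cell.

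**Figure D1:**
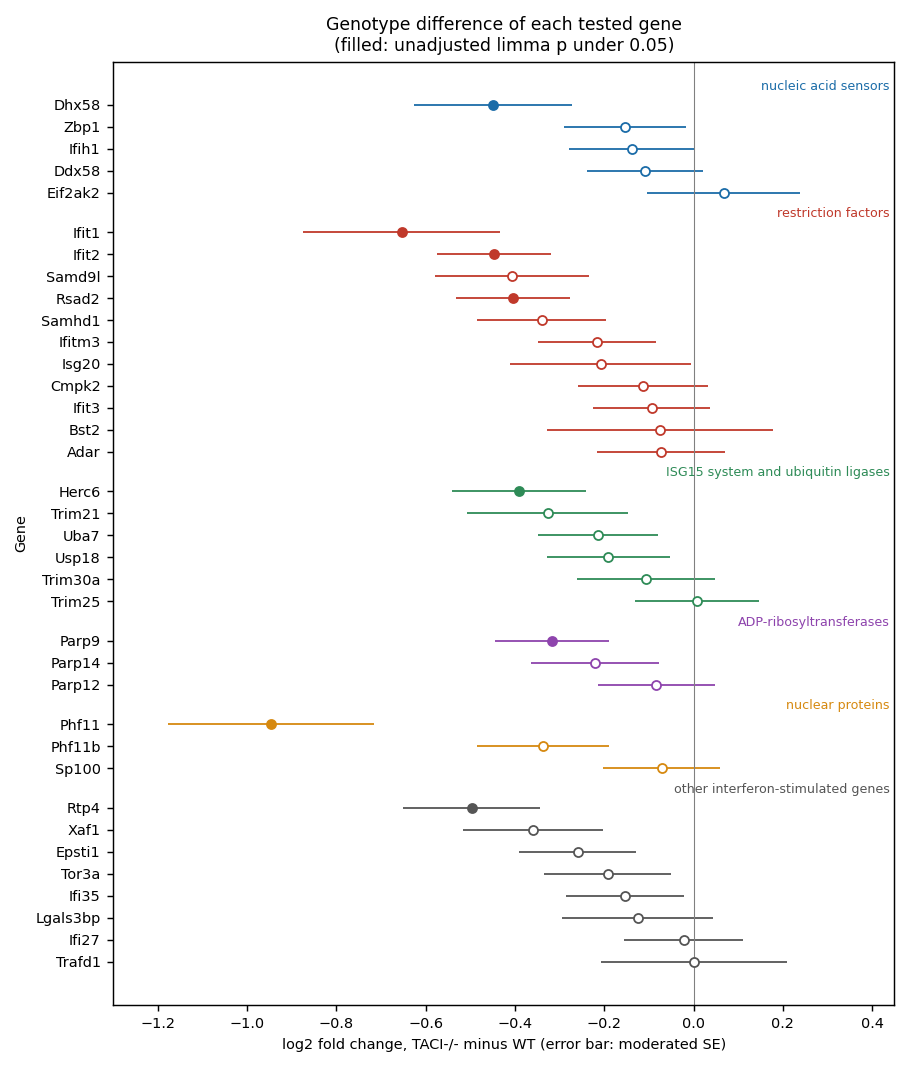
Log2 fold change (TACI-/- minus WT, horizontal axis) of each of the 36 tested interferon-stimulated genes, grouped by class, with the moderated standard error as bar and filled points for the 8 genes at an unadjusted limma p under 0.05. Points of 33 genes lie left of 0, with Phf11 at -0.95 and Ifit1 at -0.65 farthest out.

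Set against all tested genes, most of the set lay on the lower side. A negative log2 fold change was found for 91.7% of the 36 genes and for 48.2% of all tested genes. The 2 TACI-/- arrays lay below both WT arrays for 24 of the 36 genes (66.7%), beside 18.1% of all tested genes, and above both for 0, beside 20.5%. Of the 36, 24 lay below the 25th percentile of all fold changes (-0.12), 9 below the 5th percentile (-0.35), and 0 above the 75th percentile (0.14). Only Ifit1 and Phf11 were at least 1.5-fold lower. The genes were chosen with earlier results of these data known, so these shares are a description and not a test.

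**Figure D2:**
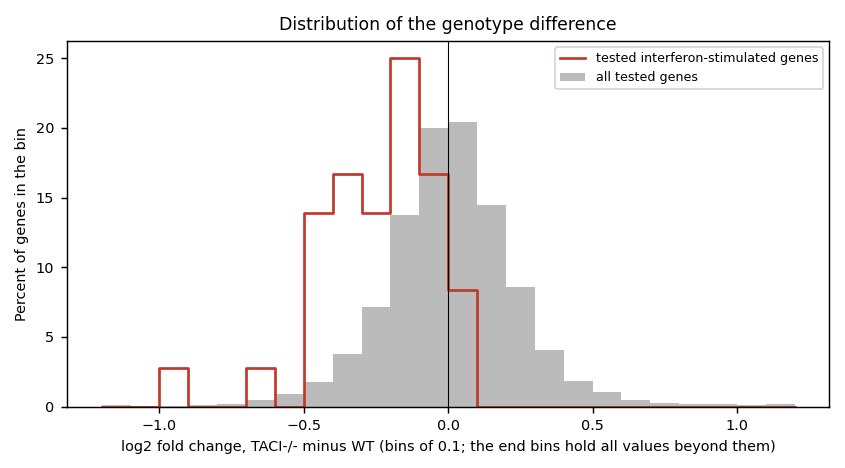
Percent of genes (vertical axis) in bins of the log2 fold change, TACI-/- minus WT, for all 13782 tested genes (grey bars) and the 36 tested interferon-stimulated genes (red line). The median lies at 0.0074 for all genes and at -0.20 for the interferon-stimulated genes.

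The arrays of one genotype also differed from each other. TACI-/- replicate 2 held the lowest value of the 4 arrays for 21 of the 36 genes and TACI-/- replicate 1 for 12, while WT replicate 1 held the highest for 24 and WT replicate 2 for 8. Over all tested genes these shares were 29%, 21%, 26.1% and 20.1%. The median difference of the set between single arrays of opposite genotype ranged from -0.13 (TACI-/- replicate 1 against WT replicate 2, 26 of 36 genes lower beside 44.3% of all tested genes) to -0.33 (TACI-/- replicate 2 against WT replicate 1, 36 of 36 lower beside 52.2%). Within a genotype, replicate 2 minus replicate 1 had a median of -0.11 in TACI-/- cells (24 of 36 genes lower, beside 57.6% of all tested genes) and of -0.08 in WT cells (26 of 36 lower, beside 50.2%). So the smallest of the 4 differences between genotypes was close in size to the difference between the TACI-/- replicates.

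**Figure D3:**
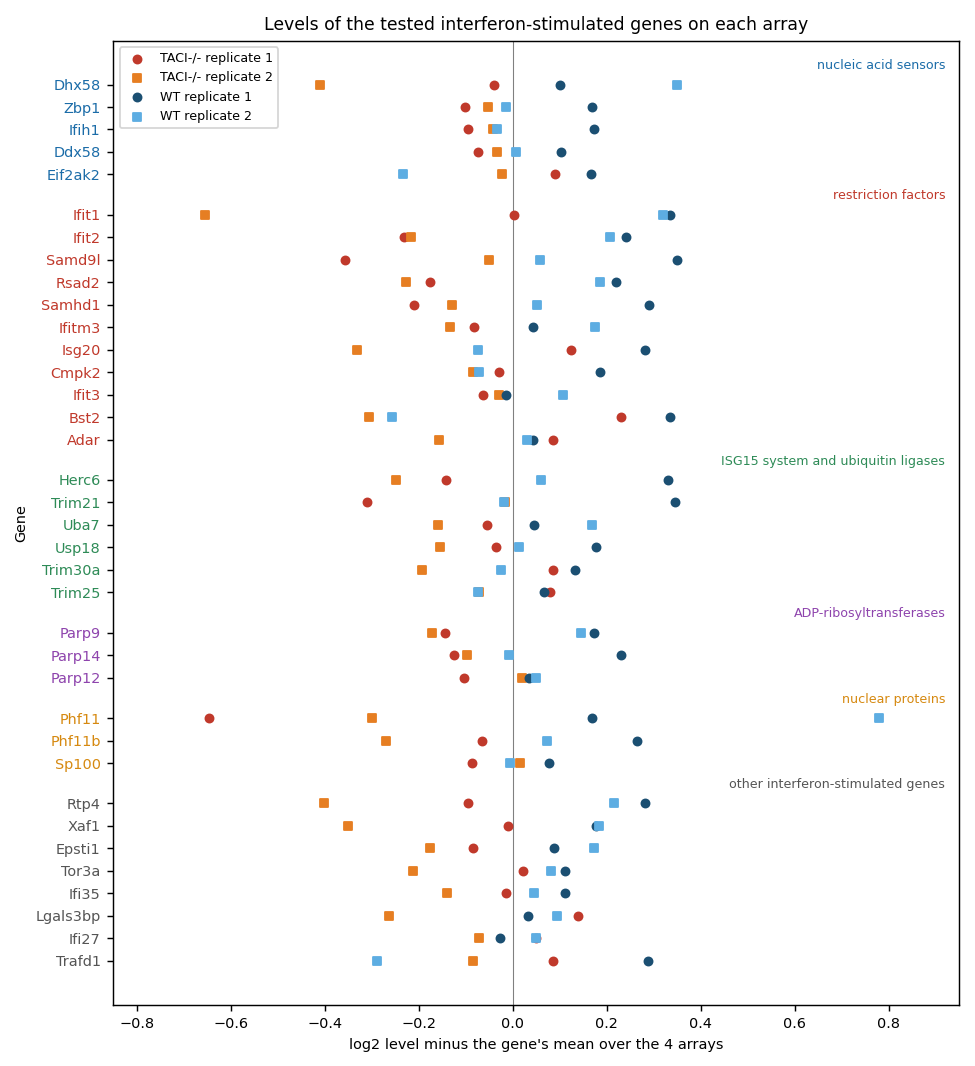
Level of each of the 36 tested genes on each array (horizontal axis), as log2 units from that gene's mean over the 4 arrays, with TACI-/- arrays in red and orange and WT arrays in dark and light blue. WT replicate 1 is the highest array for 24 genes and TACI-/- replicate 2 the lowest for 21.

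Promoters of interferon-stimulated genes often carry the element that ISGF3 binds, and the stretches printed here show it in a few members, chosen after their values were seen to span those with a larger and a smaller difference and to include Isg15. RefSeq promoter windows (GRCm38.p6, 250 bases before to 50 after each start) matched 31 of the 42 genes, with 39 windows. The ISRE core searched, the letters GAAA, 2 bases of any kind and GAAA again on either strand, was found in 33.3% of these windows, beside 3.44% of all 32851 windows. A second element, the interferon gamma activated site with the letters TTCNNNGAA, was in 20.5% of the windows, beside 8.3% of all. The 2 motifs overlapped in 0.0731% of all windows. A match is a description of letters, not a shown binding site. Bases before the start are given 5′ to 3′ along the gene, with each ISRE core in capitals.
Ifit1, chr19:34640779-34640838, plus strand: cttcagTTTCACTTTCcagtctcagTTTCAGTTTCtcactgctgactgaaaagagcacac
Ifit3, chr19:34583382-34583441, plus strand: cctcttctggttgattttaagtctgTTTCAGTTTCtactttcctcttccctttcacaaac
Rsad2, chr12:26456538-26456597, minus strand: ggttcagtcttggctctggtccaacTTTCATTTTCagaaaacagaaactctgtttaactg
Bst2, chr8:71537562-71537621, minus strand: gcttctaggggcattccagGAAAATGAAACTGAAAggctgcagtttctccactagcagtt
Isg15, chr4:156200850-156200909, minus strand: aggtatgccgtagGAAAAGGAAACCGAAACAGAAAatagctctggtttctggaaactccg
Phf11b, chr14:59341346-59341405, minus strand: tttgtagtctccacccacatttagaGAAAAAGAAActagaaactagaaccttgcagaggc
The stretch of Ifit1 holds 2 ISRE cores, that of Bst2 holds 2 and that of Isg15 holds 3, which overlap each other in Bst2 and Isg15, while Ifit3, Rsad2 and Phf11b show 1 each. The core nearest the start begins 85 bases before it in Ifit1, 120 in Rsad2, 122 in Ifit3 and 124 in Bst2. Tested genes with an ISRE core in a window had a median log2 fold change of -0.14 (11 genes, 10 negative), and tested genes with windows but no core -0.18 (16 genes, 14 negative). Among these genes, the median difference was thus not larger in those with the letters in a window. Genes without a window were left out. Among them were Phf11, with the largest difference of the set, and Rtp4, Dhx58 and Parp9, but also Ifi27, with a small one. The medians therefore do not cover the whole set.

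Among the nucleic acid sensors, Dhx58 had the largest difference. Dhx58 encodes LGP2, a helicase that tunes signalling by the RNA sensors RIG-I and MDA5. It was at 5.07 and 4.70 on the TACI-/- arrays and at 5.21 and 5.46 on the WT arrays. The groups did not overlap, although TACI-/- replicate 1 lay closer to WT replicate 1 than to TACI-/- replicate 2. Its log2 fold change was -0.45 ± 0.18 (SE, 1.36-fold lower; limma unadjusted p = 0.0401, adjusted p = 0.56), and it was -0.26 without TACI-/- replicate 2 (unadjusted p = 0.211).

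The other sensors differed by less than their error or by little more. Ifih1, which encodes MDA5, had a log2 fold change of -0.14 ± 0.14 (SE). Ddx58, which encodes RIG-I, had -0.11 ± 0.13, and Zbp1, a sensor of Z-form nucleic acid that triggers cell death, -0.15 ± 0.14. For these 3 genes both TACI-/- arrays were below both WT arrays, as for 18.1% of all tested genes, and WT replicate 1 was the highest array. Eif2ak2, which encodes the kinase PKR that halts translation on double-stranded RNA, was at 5.30 and 5.19 in TACI-/- cells and at 5.38 and 4.98 in WT cells. The WT arrays lay on either side of the TACI-/- arrays, and its log2 fold change was 0.07 ± 0.17.

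The restriction factors, which block viral entry, replication or release, included the larger differences. Of 13 genes, 11 were tested, and all 11 had a negative log2 fold change (median -0.22), beside 48.2% of all tested genes. In 7 of them both TACI-/- arrays lay below both WT arrays, beside 18.1% of all tested genes. None of the 11 passed the adjusted threshold. The Ifit genes encode proteins with tetratricopeptide repeats, some of which bind viral RNA and block its translation. Ifit1 was at 6.43 and 5.77 on the TACI-/- arrays and at 6.76 and 6.75 on the WT arrays. TACI-/- replicate 2 was the low array, and the WT arrays were nearly equal. The log2 fold change was -0.65 ± 0.22 (SE, 1.57-fold lower; limma unadjusted p = 0.0225, adjusted p = 0.504), and it was -0.33 without TACI-/- replicate 2 and -0.98 without TACI-/- replicate 1.

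Ifit2 separated the genotypes more evenly than Ifit1. Its levels were 6.30 and 6.32 in TACI-/- cells, against 6.78 and 6.74 in WT cells, so replicates agreed within 0.05 log2 units of each other. The log2 fold change was -0.45 ± 0.13 (SE, 1.36-fold lower; limma unadjusted p = 0.0107, adjusted p = 0.398). Ifit3, the neighbouring family member, was at 6.27 and 6.31 in TACI-/- cells and at 6.32 and 6.45 in WT cells, a log2 fold change of -0.09 ± 0.13. Ifit1 and Ifit3 have close copies in the mouse genome that can share probes, so their values are uncertain as those of single genes.

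Rsad2 encodes viperin, an enzyme that makes a chain-terminating nucleotide, and Cmpk2, its genomic neighbour, encodes a nucleotide kinase. Rsad2 was at 4.68 and 4.63 in TACI-/- cells and at 5.08 and 5.05 in WT cells. Both replicate pairs were tight, with a gap between the genotypes, and the log2 fold change was -0.40 ± 0.13 (SE, 1.32-fold lower; limma unadjusted p = 0.017, adjusted p = 0.478). Cmpk2 was at 5.37 and 5.32 against 5.59 and 5.33, with overlapping groups and a log2 fold change of -0.11 ± 0.15.

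Samd9l, which encodes an antiviral protein that inhibits translation, and Samhd1, which encodes a nucleotide hydrolase that limits retroviral DNA synthesis, had differences of similar size. Samd9l was at 5.65 and 5.96 in TACI-/- cells and at 6.36 and 6.06 in WT cells (log2 fold change -0.41 ± 0.17, SE). Samhd1 was at 9.21 and 9.29 against 9.71 and 9.47 (-0.34 ± 0.14). Neither pair of groups overlapped, and their limma unadjusted p of 0.0522 and 0.0529 missed 0.05.

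The remaining restriction factors had smaller differences. Ifitm3, whose product blocks viral fusion in endosomes, was at 3.98 ± 0.04 in TACI-/- cells and 4.19 ± 0.09 in WT cells (SD, n = 2), not far above the filter, with a log2 fold change of -0.22 ± 0.13 (SE). The exonuclease gene Isg20, the tetherin gene Bst2 and the RNA-editing enzyme gene Adar had -0.21 ± 0.20, -0.08 ± 0.25 and -0.07 ± 0.14, each with overlapping groups. Bst2 varied more within each genotype than between them, at 5.56 and 5.02 in TACI-/- cells, against 5.66 and 5.07 in WT cells. Mx1 and Mx2, dynamin-like GTPases that trap incoming viral particles, lay below the filter on all 4 arrays. Mx1 was at 2.51 and 2.39 in TACI-/- cells and at 2.22 and 2.44 in WT cells, and Mx2 between 3.34 and 3.41, so neither can show a difference. C57BL/6 mice are known to carry a defective Mx1 allele.

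The ISG15 system attaches the ubiquitin-like protein ISG15 to other proteins through the activating enzyme Uba7 and ligases such as Herc6, and Usp18 removes it. Isg15 itself was at 3.36 and 3.03 on the TACI-/- arrays and at 3.20 and 3.27 on the WT arrays. All 4 values lie below the filter, so this probe set cannot show whether Isg15 differs. Herc6 was at 7.39 and 7.29 in TACI-/- cells and at 7.87 and 7.60 in WT cells. The genotypes did not overlap, with a log2 fold change of -0.39 ± 0.15 (SE, 1.31-fold lower; limma unadjusted p = 0.0365, adjusted p = 0.555), which was -0.26 without WT replicate 1 (unadjusted p = 0.205).

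Uba7 and Usp18 differed in the same direction and did not pass either threshold. Uba7 was at 7.51 and 7.41 in TACI-/- cells and at 7.61 and 7.73 in WT cells, a log2 fold change of -0.21 ± 0.13 (SE). Usp18, which also restrains the type I interferon receptor, was at 7.05 and 6.92 against 7.26 and 7.09, a log2 fold change of -0.19 ± 0.14, and of -0.11 without WT replicate 1. In both genes the TACI-/- arrays lay below the WT arrays, by a gap smaller than the difference between replicates of either genotype.

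Of the ubiquitin ligases of the TRIM family, Trim21, an antibody receptor inside cells, was at 6.26 and 6.55 in TACI-/- cells and at 6.91 and 6.55 in WT cells. TACI-/- replicate 2 and WT replicate 2 were equal within 0.01 log2 units, so the groups overlapped despite a log2 fold change of -0.33 ± 0.18 (SE). Trim25, a ligase known for its part in RIG-I signalling, had 0.0073 ± 0.14, and Trim30a, which has near-identical copies beside it, -0.11 ± 0.15. Dtx3l, the ubiquitin ligase that works as a partner of Parp9, shared its probe set with Parp9. That shared probe set was at 7.11 and 7.11 in TACI-/- cells and at 7.25 and 7.13 in WT cells.

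The 3 ADP-ribosyltransferase genes each had TACI-/- arrays below both WT arrays, as did 18.1% of all tested genes. Parp9, a partner of Dtx3l in interferon signalling, was at 6.52 and 6.49 in TACI-/- cells and at 6.84 and 6.81 in WT cells, with replicates much closer to each other than the genotypes were. Its log2 fold change was -0.32 ± 0.13 (SE, 1.25-fold lower; limma unadjusted p = 0.0431, adjusted p = 0.566), beside -0.08 for the probe set shared with Dtx3l. Parp14 had -0.22 ± 0.14 and Parp12 -0.08 ± 0.13.

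Among the nuclear proteins, the Phf11 genes, PHD finger genes that lie side by side on chromosome 14, had the largest difference of the set. Phf11 was at 4.57 and 4.91 in TACI-/- cells and at 5.38 and 5.99 in WT cells. The genotypes did not overlap, and the WT arrays differed from each other by more than the TACI-/- arrays did. The log2 fold change was -0.95 ± 0.23 (SE, 1.93-fold lower; limma unadjusted p = 0.00521, adjusted p = 0.318), and leaving out 1 array moved it between -1.25 and -0.64.

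Phf11b was at 8.25 and 8.04 in TACI-/- cells and at 8.58 and 8.39 in WT cells, again without overlap (log2 fold change -0.34 ± 0.15, SE). Phf11d lay below the filter on all 4 arrays, at 2.84 and 2.55 against 2.87 and 3.52. Probes may cross between the Phf11 genes, which resemble each other closely, so it is uncertain which copy each value belongs to. Sp100, which encodes a protein of nuclear bodies that represses viral DNA, had 4 probe sets of its own, and they disagreed in size. The brightest, which stands for the gene here, differed by -0.07 ± 0.13 on the log2 scale, and the others by -0.13, -0.0005 and -0.53, the last at 3.92 and 4.29 in TACI-/- cells, against 4.65 and 4.63 in WT cells.

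Of the 8 tested genes with other roles, Rtp4 had the largest difference. Rtp4 encodes a receptor transporter protein that is strongly induced by interferon. It was at 6.79 and 6.49 in TACI-/- cells and at 7.17 and 7.10 in WT cells, with TACI-/- replicate 2 the low array. The log2 fold change was -0.50 ± 0.15 (SE, 1.41-fold lower; limma unadjusted p = 0.0153, adjusted p = 0.464). Xaf1, a promoter of cell death, was at 6.17 and 5.83 in TACI-/- cells and at 6.36 and 6.37 in WT cells (-0.36 ± 0.16).

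Epsti1 had a log2 fold change of -0.26 ± 0.13 (SE), Tor3a, of the torsin family, -0.19 ± 0.14, and Ifi35 -0.15 ± 0.13, all without overlap of the genotypes. A second, dimmer probe set of Ifi35 had -0.35. Lgals3bp, a secreted glycoprotein that binds galectins, had -0.13 ± 0.17 in its brighter and -0.12 in its dimmer probe set. Ifi27 and Trafd1, a brake on innate signalling, had -0.02 ± 0.13 and 0.002 ± 0.21, and the WT arrays of Trafd1 stood 6.60 and 6.02 apart.

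By class, then, the median log2 fold change was -0.14 for the 5 sensors, -0.22 for the 11 restriction factors, -0.20 for the 6 tested genes of the ISG15 system and the ubiquitin ligases, -0.22 for the 3 ADP-ribosyltransferases, -0.34 for the 3 nuclear proteins and -0.17 for the 8 others. The 3 genes with a positive value, Eif2ak2, Trim25 and Trafd1, belonged to 3 different classes; with each array centred on its median, Trim25 and Trafd1 had -0.0043 and -0.0095. Differences between classes were not tested.

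Upstream steps of the pathway were read from fixed lists. Of 21 interferon genes, 9 were tested and none passed the adjusted threshold; 4 were lower and 5 higher in TACI-/- cells, with a median of 0.06. Ifna15 was 0.51 ± 0.17 higher on the log2 scale (SE; unadjusted p = 0.0209 in limma), Ifna4 -0.26, Ifna14 0.17 and Ifna1 -0.17. The Ifna genes resemble each other so closely that probes may cross between them. Ifnb1 and Ifng lay below the filter on all 4 arrays.

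All 6 receptor genes were tested, and their log2 fold changes ran from -0.10 to 0.11. Ifnar1, a chain of the type I interferon receptor, was at 8.64 and 8.64 in TACI-/- cells and at 8.75 and 8.72 in WT cells, and Ifnar2, the other chain, had a log2 fold change of 0.09 ± 0.13 (SE). The interferon gamma receptor chain Ifngr2 had 0.11 and the lambda receptor chain Ifnlr1 0.08. Of 12 kinases and transcription factors, 10 were tested, 7 lower and 3 higher, with a median of -0.05, and none passed the adjusted threshold. Irf8 had 0.34 ± 0.13 (limma unadjusted p = 0.0352), Irf1 0.33, Irf3 -0.23 and Jak2 0.20.

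Brakes on the pathway had a median log2 fold change of 0.13 over 7 tested genes, 5 of them higher and none past the adjusted threshold. Socs3, a suppressor of cytokine signalling, was at 6.96 and 6.75 in TACI-/- cells and at 6.49 and 6.49 in WT cells (0.37 ± 0.14, SE; limma unadjusted p = 0.0345). Socs1, which blocks Janus kinases after interferon, was at 5.48 and 5.48 against 5.22 and 5.27 (0.24 ± 0.13). The phosphatase genes Ptpn2 and Ptpn6 had 0.15 and -0.14. Sensing adaptors and receptors that lie before the interferon genes had a median of 0.04 over 10 tested genes, 4 lower and 6 higher, and Tlr9, Tlr7, Traf6 and Ikbke had 0.24, 0.20, 0.13 and 0.10; none passed.

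Most tested genes of the Oas family, the GTPases and the interferon gamma targets were lower in TACI-/- cells, beside 48.2% of all tested genes. Among 18 tested genes of the Oas family and the GTPases, 17 were lower and 1 passed the adjusted threshold; the median was -0.34. The gene that passed, Oas1b, fell by 1.17 (limma adjusted p = 0.0482), while Irgm2, Oas2 and Oas3 had -0.66, -0.62 and -0.54 and did not pass. Oas1b did not pass with no filter (limma adjusted p = 0.106), after a further quantile normalization (0.0577), with the replicate block (0.089), without variance moderation (0.618) or with any array left out (0.314 to 0.452). Of 13 genes of antigen presentation and the proteasome that interferon gamma induces, 11 were lower, with a median of -0.12 and none past the adjusted threshold. Ciita and Tap2 were higher, with log2 fold changes of 0.19 and 0.01. Psme2, an activator subunit of the proteasome, had -0.36 ± 0.14 (SE, limma unadjusted p = 0.0354), Psme1 -0.23, the peptide transporter gene Tap1 -0.21 and the proteasome subunit gene Psmb10 -0.20. These lists were compared with the set by their medians and not by a test.

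**Figure D4:**
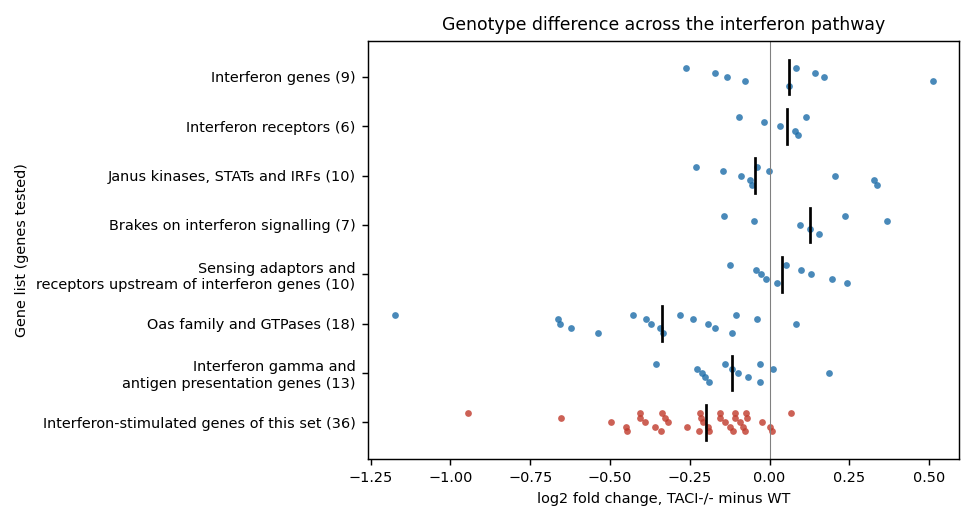
Log2 fold changes (TACI-/- minus WT, horizontal axis) of the tested genes in 7 lists of the interferon pathway (blue) and in the interferon-stimulated gene set (red), with the median of each as a black line. Medians lie at 0.06 for interferon genes, 0.06 for receptors, -0.34 for the Oas family and GTPases and -0.20 for the gene set.

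Markers of cell types were measured beside the set. Of the 7 markers of naive CD4+ T cells, 6 were lower in TACI-/- cells, beside 48.2% of all tested genes. Their median was -0.13, and none passed the adjusted threshold. Il7r had -0.48 ± 0.15 (SE, limma unadjusted p = 0.0144) and Cd3d -0.30, while Ccr7, which was higher, had 0.03. Of 12 B cell markers, 9 were tested, and all 9 were higher in TACI-/- cells (median log2 fold change 0.35). At an unadjusted limma p under 0.05, 4 of the 9 were higher (Ly86, H2-Aa, Bank1 and H2-Ab1), beside 4.94% of all tested genes. None of the B cell markers passed the adjusted threshold. Their summed level was 48.2 to 50.9 log2 units on the TACI-/- arrays and 45.3 to 46.6 on the WT arrays over the 11 with a probe set, and Ms4a1 and Blk lay below the filter on all 4 arrays. Plasmacytoid dendritic cells, known as strong producers of interferon, had a summed marker level of 35.2 to 35.3 against 34.2 to 34.6 over 8 markers. Of these, 5 were tested, among them Bst2, which is itself 1 of the 36 genes. The 4 that were higher were Tcf4, Pacsin1, Cox6a2 and Irf8, which is also among the transcription factors above. Siglech, the defining marker of these cells, reached the filter on 1 of 4 arrays, with a log2 fold change of -0.06. Ccr9 lay below the filter on all 4 arrays, with -0.02. Monocyte, macrophage and neutrophil markers summed to 37.7 to 38.5 in TACI-/- and 38.1 to 38.2 in WT cells over 10 markers, 5 of them tested, with S100a8, S100a9, Cd14 and Ly6g below the filter on all 4 arrays. Of the 5, 2 differed in opposite directions without passing the adjusted threshold, Cd68 (0.71 ± 0.17, SE) and Lyz2 (-0.49 ± 0.15). NK and CD8 effector markers summed to 31.7 to 32.7 against 31.8 to 34.1 over 8 markers, of which 3 were tested. These were Klrd1, with a log2 fold change of -0.87 ± 0.15 (SE), Nkg7 with 0.17 and Prf1 with 0.08. Cd8b1 had -0.65 ± 0.16, and none of these 4 passed the adjusted threshold. The part of other cells in the difference of the interferon-stimulated genes was not tested.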

How the data were processed

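The values deposited by the authors are log2 levels of 41345 probe sets on 4 arrays of sorted naive CD4+ T cells. The submitters' processing notes list RMA and Partek and give no version or role for either. No source states the log base; RMA works in base 2, and the values span 0.94 to 13.2. Genome build and filters are not given in the sources used here. Identical values made up at most 0.44% of any pair of arrays.

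Probe sets with 1 gene symbol in the platform annotation (23521) were used, 1814 with several symbols named no gene, and 16010 had none there. The probe set with the highest mean over the arrays stood for a gene. Genes entered the test if 2 or more arrays reached that array's 40th percentile. Genotypes, taken from the titles, were the only term of a two-sided fit (lmFit and eBayes of limma 3.58.1, run in R 4.3.3) with Benjamini-Hochberg adjustment over 13782 genes. Errors are moderated standard errors (SE). Where nothing says that samples came from separate animals, p-values measure only the spread between these samples. The fit was tested on simulated data.

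The genes and lists were chosen with earlier results of these data known, so no p was adjusted over the set alone and no set test was run. Values on each array were to be given for Tnfrsf13b, for members at an unadjusted p under 0.05, for the largest difference of each class and for Isg15, Usp18 and Mx1, and up to 4 genes per pathway list by p; other members shown were chosen after their values were seen. Promoter windows came from RefSeq (GRCm38.p6) and were searched with a script for 2 motifs. Alternatives were 2 other filters, other variance models, averaged probe sets, centring, repeated quantile normalization, the replicate block and leaving out each array.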

Additional observations from a re-analysis of the deposited data

How the results depend on the processing

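Over the 12 alternatives, 0 of the 36 genes passed the adjusted threshold (limma), and the lower levels in TACI-/- cells kept a negative median, from -0.26 to -0.15 with 1 array left out, when 27 to 35 genes were lower. None of the 9 named genes that were tested passed the threshold in any alternative. The lowest adjusted p among them was 0.169 (limma), for Phf11 with the replicate block. Their direction was kept in 108 of 108 values, but most of these could not reverse. In all 9 genes the groups did not overlap, so leaving out 1 array cannot change the sign. The filters, the variance models, the replicate block and averaged probe sets left their fold changes as they were. Only the centring and the quantile normalization could have reversed them. The count at an unadjusted p under 0.05, 8 as reported, was 13 with a variance trend, 3 without variance moderation and 2 to 7 with 1 array left out. The count of all genes past the threshold, 19 as reported, was 3 with no filter, 45 with the 60th percentile filter, 12 after a further quantile normalization, 46 with a variance trend and 0 without variance moderation (986 genes at an unadjusted p under 0.05). It was 0 to 0 with 1 array left out (721 to 1145 genes at an unadjusted p under 0.05), where the lone array is assumed to vary like the other genotype. The causes were not tested. Median centring and a further quantile normalization each left 35 of 36 genes lower. Replicate numbers are shared only as numbers: deviations of same-numbered arrays correlated at r = -0.03. The replicate block gave 13 genes past the threshold. It put 6 of the 36 interferon-stimulated genes at an unadjusted limma p under 0.05, beside 8.21% of all tested genes. With 2 arrays per genotype, differences as small as those of this set are hard to separate from replicate spread gene by gene, and signals near background, as for Isg15 and Mx1, set no limit.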
